A study of Mus musculus with 12 samples.

Results

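The 6 genes described here are known for being switched on in cells leaving the primitive streak to become mesoderm. They are the receptors Aplnr, Kdr and Pdgfra and the transcription factors Mesp1, Tbx6 and Msgn1. They were taken by name, with every probe set that the platform table assigns to them alone, which gave 9 probe sets for 6 genes out of 45101 probe sets and 18193 genes on the array. Aplnr and Mesp1 were lower in Smad4-null embryoid bodies than in wild type, Aplnr by 5.36 and Mesp1 by 1.47 on the log2 scale. In that comparison 11.3% of all genes were called lower. Aplnr lay below the array median on every Smad4-null array, and with low values raised to a floor it differed by -3.06. The Mesp1 call did not hold when same-numbered arrays of a line were taken as 1 unit. Kdr and Mesp1 stood below every wild-type array on all 4 Trim33-KD arrays, by 1.10 and 1.09 on average, without passing the threshold. The same lack of overlap, in that direction, was seen for 6.28% of all genes. Without both Trim33-KD arrays numbered 2 the differences were -0.72 for Kdr and -0.70 for Mesp1. None of the 6 genes passed the threshold between activin and the receptor inhibitor in any genotype. Hardly any gene did, 0.0330% of all genes in wild type and 0.0110% in each mutant.

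The samples were embryoid bodies, floating aggregates of mouse embryonic stem cells of strain 129 that differentiate after LIF is withdrawn, taken at day 2.5. The lines were wild type (WT), Smad4-null, without functional Smad4, and Trim33-KD, in which Trim33 was knocked down. Each was treated for 2 h with activin (ac, 50 ng/ml) or with SB431542 (SB, given in the labels as 10 mM), an inhibitor of the type I receptors for activin and nodal. A pair of Affymetrix arrays was run for each of the 6 groups, 12 arrays in total, and this small number sets the precision. There was no untreated group, so a treatment difference can come from the ligand, the inhibitor or both. The labels name no method for the deletion or the knock-down, no number of clones, and no separate cultures behind the replicates. Without separate cultures, a p-value would reflect technical spread alone. Line and genotype change together and cannot be told apart.

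Mesoderm forms when epiblast cells enter the primitive streak under nodal, Wnt and BMP signals, leave it and move away as a loose layer. Nodal and activin act through receptors that phosphorylate Smad2 and Smad3, which enter the nucleus with Smad4; Trim33 is a nuclear ubiquitin ligase that also binds Smad2 and Smad3. Mesp1 marks the first cells to leave, many of which become heart and blood vessel. Msgn1 and Tbx6 act in the presomitic mesoderm that later forms somites. Kdr, the main receptor for vascular endothelial growth factor, marks the precursors of vessels and blood. Pdgfra, a receptor for platelet-derived growth factors, is found on paraxial and cardiac mesoderm, and also on primitive endoderm. Aplnr, a G-protein-coupled receptor for apelin and Apela, appears on mesoderm as it leaves the streak.

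Promoter sequences were read for the members to show which short motifs lie before them. RefSeq (GRCm38.p6) gave the 250 bases before the annotated start for 5 of the 6 members, all but Aplnr. Those of Mesp1, Msgn1 and Kdr are printed 5′ to 3′ on the strand of the gene, with matches to CTTTGA (a Tcf/Lef motif) or AGGTGT (a T-box site), on either strand, in capitals. Mesp1 is shown because it holds both motifs and was called lower without Smad4, though not with same-numbered arrays of a line as 1 unit. Msgn1 is shown because it holds the first motif and was not called, though it was dim on every array. Kdr is shown because it holds neither. These promoters were picked with the values known, so they cannot relate motifs to levels. They lie at chr7:79793591-79793840, chr12:11208949-11209198 and chr5:75978456-75978705, all on the minus strand.
Mesp1: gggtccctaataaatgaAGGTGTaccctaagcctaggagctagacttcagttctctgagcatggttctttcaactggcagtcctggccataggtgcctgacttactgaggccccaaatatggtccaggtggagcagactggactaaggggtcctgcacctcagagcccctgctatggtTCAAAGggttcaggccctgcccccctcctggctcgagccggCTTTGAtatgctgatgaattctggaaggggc
Msgn1: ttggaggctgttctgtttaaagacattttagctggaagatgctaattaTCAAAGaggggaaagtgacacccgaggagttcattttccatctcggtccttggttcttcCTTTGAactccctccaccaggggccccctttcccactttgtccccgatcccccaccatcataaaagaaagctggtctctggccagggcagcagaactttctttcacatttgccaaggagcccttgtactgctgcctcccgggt
Kdr: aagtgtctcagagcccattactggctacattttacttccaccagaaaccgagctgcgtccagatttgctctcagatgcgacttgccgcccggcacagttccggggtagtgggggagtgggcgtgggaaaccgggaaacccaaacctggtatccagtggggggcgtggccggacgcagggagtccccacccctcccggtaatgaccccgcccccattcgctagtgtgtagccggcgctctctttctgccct
Mesp1 held CTTTGA at 72 and at 31 bases before its start, and Msgn1 at 202 and at 143 bases. The other 3 promoters read held none, and 14.0% of all 27025 promoters of the same length hold at least 1. AGGTGT lay 233 bases before the start of Mesp1 and 213 bases before that of Pdgfra, against 12% of all promoters. The short Smad box GTCT was present in all 5, as in 83.0% of all promoters, and the GC-rich Smad box GGCGC in Kdr alone, as in 32.1% of all. The E-box CANNTG was in Kdr, Pdgfra, Mesp1 and Msgn1 (66% of all), while the Foxh1 motif AATNNACA (11.1%) and the GATA motif AGATAA (10.3%) were in none of the 5. All motifs were searched on both strands, and the matches in capitals did not overlap a match to another motif. A match is a description of the letters, not a site where a factor was measured.

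The values are log2 signals, and the median signal of an array lay between 5.85 and 6.30. Values well below that median come from dim probe sets, and the files used hold no call of presence. Kdr and Mesp1 lay above the median of their array on 12 of 12 arrays and Aplnr on 8 of 12, all but the Smad4-null arrays. Pdgfra lay above it on 3 of 12 arrays, and Tbx6 and Msgn1 on 0 of 12. So Aplnr, Kdr and Mesp1 were measured well above the dim range in WT, while the presomitic factors Tbx6 and Msgn1 were dim in every group. The summed level of 7 epiblast markers was 15.27 to 15.53 over the 12 arrays. Yet in Smad4-null 3 of them fell (Fgf5 by 1.43, Nanog by 0.38 and Pou5f1 by 0.31) and 2 rose (Utf1 by 0.82 and Sox2 by 0.49). In Trim33-KD Otx2 fell by 0.95. Of all genes 11.3% were called lower and 7.12% higher in Smad4-null, and 0.649% were called in Trim33-KD. As a check of the groups, Trim33 was 11.72 ± 0.16 in WT and 10.18 ± 0.23 in Trim33-KD (SD, n = 4 arrays each), and its fall by 1.54 passed (limma adjusted p = 0.01009). Smad4 was 11.96 ± 0.07 in WT and 12.17 ± 0.05 in Smad4-null, and whether its probe set lies in the deleted part is not known, so it checks nothing. RNA quality, read as the Actb 3′ minus 5′ difference, varied from 0.31 to 0.53 except on WT-SB replicate 2 (0.67) and Trim33-KD-SB replicate 2 (0.74). The signal of 18S ribosomal RNA was 5.53 to 8.16 on the WT arrays, lowest on the pair numbered 1, 8.10 to 9.22 on the Smad4-null arrays and 7.56 to 10.16 on the Trim33-KD arrays. The part of either in the member values was not tested.

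**Figure D1:**
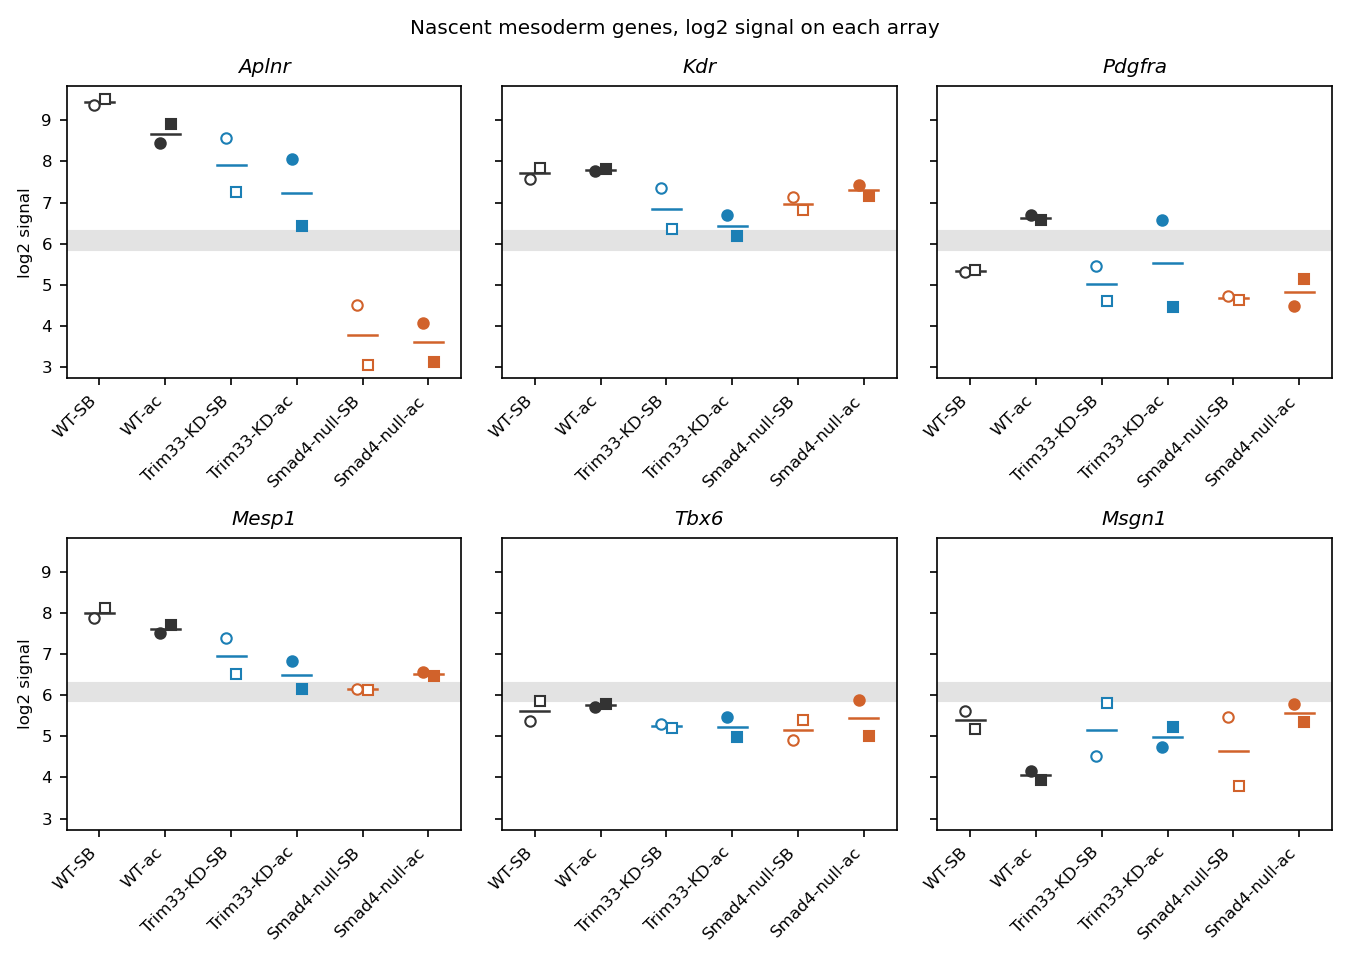
Log2 signal of the 6 genes on each of the 12 arrays, by genotype and treatment. Open symbols are SB431542 and filled symbols activin, circles are replicate 1 and squares replicate 2, lines are group means, and the grey band spans the array medians from 5.85 to 6.30. Aplnr on the Smad4-null arrays lies below the band, at 3.05 to 4.50, and Tbx6 and Msgn1 lie under or within it in every genotype.

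Aplnr had the widest range of the 6 genes. In WT its log2 signal was 9.38 and 9.51 with SB431542 and 8.44 and 8.90 with activin. In Trim33-KD it was 8.56 and 7.26 with SB431542 and 8.06 and 6.42 with activin. In Smad4-null it was 4.50 and 3.05, and 4.08 and 3.13. The Smad4-null arrays lay below all others and did not overlap them, whereas WT and Trim33-KD overlapped. By group mean the order ran from WT-SB (9.45) and WT-ac (8.67) through Trim33-KD-SB (7.91) and Trim33-KD-ac (7.24) to Smad4-null-SB (3.78) and Smad4-null-ac (3.61). Neighbours in that order overlapped except WT-SB over WT-ac and Trim33-KD-ac over Smad4-null-SB.

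In the difference of Smad4-null from WT, averaged over the treatments, Aplnr fell by 5.36 (SE 0.51, 95% interval -6.55 to -4.18, limma adjusted p = 6.28e-04), leaving 2.43% of the WT signal. With same-numbered arrays of a line taken as 1 unit it still passed (SE 0.64, limma adjusted p = 0.02478). The Smad4-null signals were below the array medians, so the size of the difference rests on values near the bottom of the scale. With values below 64 on the linear scale (6 on the log2 scale) raised to that floor, the difference was -3.06 and still passed. A second Aplnr probe set moved the same way, from 6.29 to 7.71 over the WT arrays to 4.22 to 5.47 over the Smad4-null arrays, a difference of -2.06 (SE 0.34, limma adjusted p over all probe sets = 0.01126). Both treatments showed the fall, -5.67 with SB431542 (limma adjusted p = 0.005125) and -5.06 with activin (limma adjusted p = 0.007628). Aplnr was also the one member called between the mutants, being 3.89 higher in Trim33-KD than in Smad4-null (SE 0.51, limma adjusted p = 0.002351), where 11.1% of all genes were called higher. With the floor at 64 that difference was 1.58 (limma adjusted p = 0.04951).

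Mesp1, a basic helix-loop-helix factor, was 7.87 and 8.13 in WT with SB431542 and 7.52 and 7.70 with activin. In Trim33-KD it was 7.38 and 6.51 with SB431542 and 6.83 and 6.14 with activin. In Smad4-null it was 6.16 and 6.13 with SB431542 and 6.57 and 6.46 with activin. All 4 WT arrays lay above all 8 arrays of the mutants, and the mutants overlapped. Mesp1 fell by 1.47 in Smad4-null (SE 0.22, 95% interval -1.99 to -0.96, limma adjusted p = 0.004081), to 36.0% of WT. With same-numbered arrays of a line taken as 1 unit it did not pass (SE 0.28, limma adjusted p = 0.05348). The difference was -1.86 with SB431542 (limma adjusted p = 0.01407) and -1.09 with activin, where it did not pass (limma adjusted p = 0.0755). Its neighbour and relative Mesp2 was not called, at 6.55 in WT and 6.10 in Smad4-null (limma adjusted p = 0.3153).

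Kdr, a receptor tyrosine kinase, was steady in WT, at 7.58 and 7.85 with SB431542 and 7.76 and 7.81 with activin. In Smad4-null it was 7.14 and 6.81 with SB431542 and 7.42 and 7.17 with activin. In Trim33-KD it was 7.35 and 6.36, and 6.70 and 6.18. No WT array overlapped an array of either mutant. The difference from WT was -0.61 in Smad4-null (SE 0.23, 95% interval -1.16 to -0.07, limma adjusted p = 0.1209), which did not pass.

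Pdgfra, also a receptor tyrosine kinase, was 5.32 and 5.35 in WT with SB431542 and 6.69 and 6.58 with activin. In Trim33-KD it was 5.45 and 4.61 with SB431542 and 6.58 and 4.46 with activin. In Smad4-null it was 4.74 and 4.64 with SB431542 and 4.49 and 5.14 with activin, all below the WT arrays. The Smad4-null difference was -1.23 (SE 0.44, 95% interval -2.26 to -0.20, limma adjusted p = 0.1004) and did not pass. Its other probe sets were dimmer, at most 5.72 on any array, with Smad4-null differences of -2.08 and -0.57 that did not pass either. Pdgfra also marks extraembryonic endoderm. Of 10 markers of that tissue 0 rose and 3 fell in Smad4-null (Sox17 by 1.18, Sox7 by 1.34 and Gata6 by 1.5). Of all genes 11.3% were called lower there. The summed level of these markers was 10.01 to 10.36 on the WT arrays and 9.60 to 9.94 on the Smad4-null arrays. Their part in the Pdgfra values was not tested.

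Tbx6, a T-box factor of presomitic mesoderm, stayed between 4.90 and 5.89 on all 12 arrays, with means of 5.69 ± 0.22 in WT, 5.24 ± 0.20 in Trim33-KD and 5.30 ± 0.45 in Smad4-null (SD, n = 4). Msgn1, a basic helix-loop-helix factor that acts with it, ranged from 3.80 to 5.80, with means of 4.73 ± 0.80, 5.08 ± 0.56 and 5.10 ± 0.88. Genotypes overlapped for both genes. The Smad4-null differences were -0.39 for Tbx6 (limma adjusted p = 0.3191) and 0.38 for Msgn1 (limma adjusted p = 0.6049), so neither passed.

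**Figure D2:**
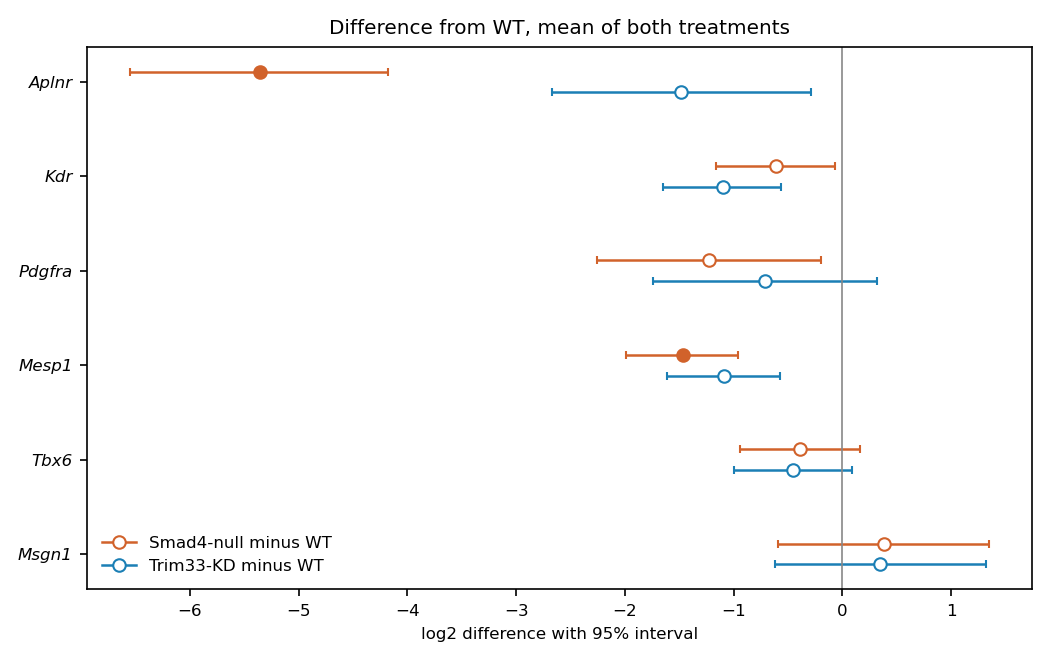
Log2 difference from WT, averaged over both treatments, for the 6 genes in Smad4-null and Trim33-KD, with 95% intervals. Filled points passed the threshold in limma with Benjamini-Hochberg adjustment over all genes. Aplnr and Mesp1 are filled for Smad4-null at -5.36 and -1.47, and no point is filled for Trim33-KD.

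Counted together, 2 of the 6 members fell and 0 rose in Smad4-null at a limma adjusted p under 0.05, where 11.3% of all genes were called lower and 7.12% higher. Under SB431542 alone 2 fell (6.12% of all genes) and under activin alone 1 fell (5.60% of all genes). With same-numbered arrays of a line taken as 1 unit, 1 of 6 fell, Aplnr, against 4.88% of all genes. The median difference over the members was -0.92, against -0.03 over all genes. Arrays of Smad4-null lay wholly below those of WT for 4 of 6 members, Aplnr, Mesp1, Kdr and Pdgfra, against 15.0% of all genes. Markers of other cell types were called in the same comparison. Of 5 neuroectoderm markers Pax6 rose by 1.59 and Lhx2 by 3.66 and Nes fell by 1.68, with a summed level of 9.97 to 10.17 in WT and 9.44 to 9.60 in Smad4-null. Of 8 fibroblast markers Dcn rose by 3.27, Thy1 fell by 0.76 and Col1a2 fell by 0.48, with a summed level of 9.0 to 9.37 in WT and 9.02 to 9.35 in Smad4-null. With same-numbered arrays of a line taken as 1 unit, Pax6, Nes, Thy1, Fgf5 and Gata6 remained called among the neuroectoderm, fibroblast, epiblast and extraembryonic endoderm markers, and the other called markers of those lists did not. Their part in the member values was not tested. In whole embryoid bodies, fewer cells of a type and less RNA per cell cannot be told apart.

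In Trim33-KD 0 of 6 members passed in the difference from WT, where 0.649% of all genes were called, and 3 members (Aplnr, Kdr and Mesp1) had an unadjusted limma p under 0.05, against 17.0% of all genes. With same-numbered arrays of a line taken as 1 unit, 0% of all genes were called, Trim33 among those not called. Kdr differed by -1.10 (SE 0.23, 95% interval -1.65 to -0.56, limma adjusted p = 0.09377), which is 46.6% of WT, and Mesp1 by -1.09 (SE 0.22, 95% interval -1.61 to -0.57, limma adjusted p = 0.08732), which is 47.0% of WT. Of 24 alternative settings, 1 brought both past the threshold, a trended and robust prior of the variance (limma adjusted p = 0.01648 for each). The share of all genes called under that prior is not given here, so these calls cannot be set against it. Aplnr differed by -1.48 (95% interval -2.67 to -0.29, limma adjusted p = 0.2157), Pdgfra by -0.71, Tbx6 by -0.45 and Msgn1 by 0.35. Kdr and Mesp1 arrays of Trim33-KD lay wholly below WT, 2 of 6 members against 6.28% of all genes. The comparisons of each mutant with WT share the WT arrays.

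The Trim33-KD replicates differed from each other. Those numbered 2 were lower than those numbered 1 for 5 of 6 members under both treatments. The difference of number 2 minus number 1, with SB431542 and with activin, was -1.30 and -1.64 for Aplnr, -0.99 and -0.52 for Kdr, -0.84 and -2.12 for Pdgfra and -0.87 and -0.69 for Mesp1. For Tbx6 it was -0.10 and -0.48, and for Msgn1 it was 1.28 and 0.48. The share of all genes with such a gap is not given here. A gap was not confined to Trim33-KD. In Smad4-null it was -1.45 and -0.95 for Aplnr, -1.67 and -0.43 for Msgn1, -0.33 and -0.25 for Kdr and -0.03 and -0.11 for Mesp1. Pdgfra (-0.10 and 0.65) and Tbx6 (0.49 and -0.87) had no single direction there. The Trim33-KD arrays numbered 2 were higher in Krt18, a keratin of trophectoderm and other simple epithelia, at 12.03 with SB431542 and 11.82 with activin. It was 10.88 and 11.02 on the arrays numbered 1 and 10.80 ± 0.14 in WT (SD, n = 4). Of 5 trophectoderm markers measured, 0 passed in Trim33-KD. Their summed level was 12.41 and 12.23 on the arrays numbered 2 and 11.58 and 11.76 on those numbered 1. Krt18, the brightest of the 5, made up most of that sum. Krt7 was also higher on the arrays numbered 2, at 7.34 and 7.08 against 6.29 and 7.02. Cdx2 (7.97 and 8.57 against 8.28 and 8.17), Elf5 (2.26 and 3.95 against 3.31 and 3.58) and Tfap2c (9.71 and 9.33 against 9.59 and 9.90) had no single direction. The part of these markers in the member values was not tested. Without both arrays numbered 2 the Trim33-KD difference was -0.75 for Aplnr (limma adjusted p = 0.6727), -0.72 for Kdr (limma adjusted p = 0.2809), -0.70 for Mesp1 (limma adjusted p = 0.2197), 0.03 for Pdgfra and -0.09 for Msgn1. In that same fit 4 members fell in Smad4-null, Kdr and Pdgfra besides Aplnr and Mesp1, where 9.36% of all genes were called lower.

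Activin against SB431542 changed none of the members past the threshold. In WT 0 of 6 were called, where 0.0330% of all genes were; in Smad4-null and in Trim33-KD 0 of 6 were called, where 0.0110% of all genes were in each. No member had an unadjusted limma p under 0.05 in any genotype, against 4.02% of all genes in WT, 6.81% in Smad4-null and 4.21% in Trim33-KD. The largest differences in WT were in dim genes, 1.30 for Pdgfra (95% interval -0.16 to 2.75) and -1.34 for Msgn1 (95% interval -2.72 to 0.03). Msgn1 was 5.61 and 5.18 on the WT arrays with SB431542 and 4.15 and 3.95 with activin, and the limma adjusted p was 0.9996 for all 6 members. Aplnr differed by -0.78, Mesp1 by -0.39, Tbx6 by 0.12 and Kdr by 0.07. Treatments did not overlap for 4 of 6 members in WT, Pdgfra higher and Msgn1, Aplnr and Mesp1 lower with activin, against 26.7% of all genes. In Smad4-null Msgn1 differed by 0.94, Mesp1 by 0.37 and Kdr by 0.32, and in Trim33-KD Aplnr by -0.67, Pdgfra by 0.49 and Mesp1 by -0.46.

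Whether the response itself differed between genotypes was tested as an interaction. Msgn1 had the largest value, a response 2.28 higher in Smad4-null than in WT (95% interval 0.34 to 4.22), but it did not pass (limma adjusted p = 0.6541). In limma 0 of all genes passed in that test, with 7.24% at an unadjusted p under 0.05. For Trim33-KD against WT the Msgn1 value was 1.17 and that of Pdgfra -0.81, and again 0 genes passed, with 2.67% at an unadjusted p under 0.05.

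**Figure D3:**
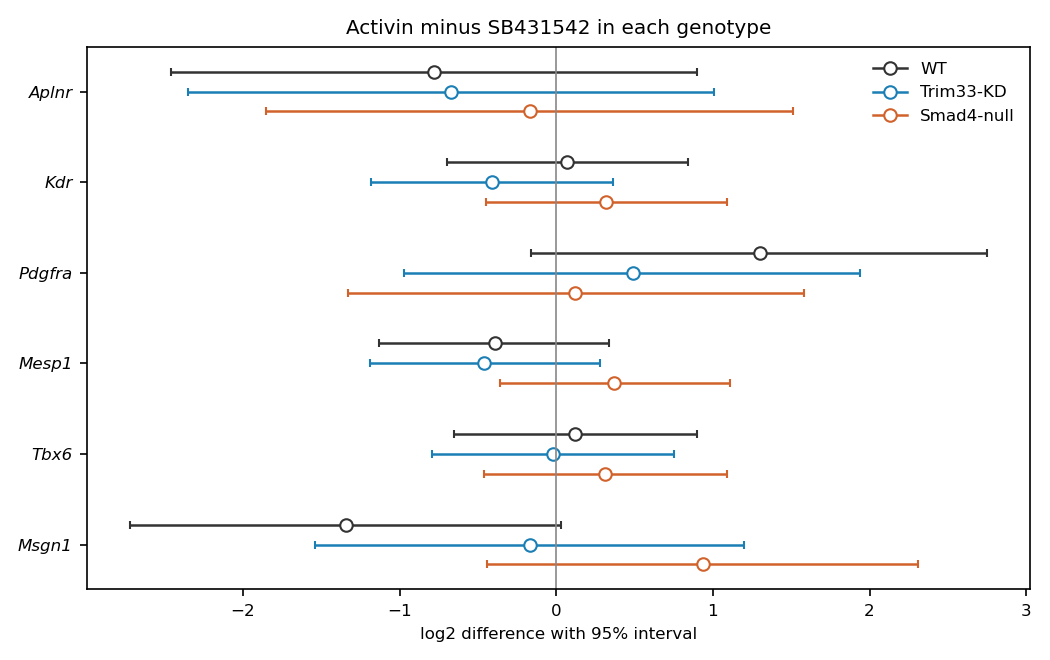
Log2 difference of activin minus SB431542 for the 6 genes in each genotype, with 95% intervals. Open points did not pass the threshold, and every point is open; the intervals of Pdgfra in WT (-0.16 to 2.75) and Msgn1 in WT (-2.72 to 0.03) reach farthest from 0 on either side.

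The ligands of the member receptors were measured on the same arrays. Of 10 ligands 1 fell and 3 rose in Smad4-null. Of all genes 11.3% were called lower and 7.12% higher there, and 0.649% were called in Trim33-KD. Apln, which encodes the apelin ligand of Aplnr, was 9.90 to 10.48 over the WT arrays, 9.53 to 10.02 over the Trim33-KD arrays and 7.85 to 7.98 over the Smad4-null arrays. It fell by 2.29 in Smad4-null (SE 0.14, limma adjusted p = 1.48e-04), with no overlap. Apela, the other ligand of Aplnr, was not called in Smad4-null (0.16, limma adjusted p = 0.3407). It was the one ligand to pass in Trim33-KD, 0.78 higher than WT (SE 0.10, limma adjusted p = 0.02997), at 12.02 to 12.36 against 11.31 to 11.69. That call did not hold with same-numbered arrays of a line taken as 1 unit (limma adjusted p = 0.2222). In Smad4-null, then, Aplnr and Apln both fell, and Apela was not called. Pdgfc, a ligand of Pdgfra, rose by 1.16 in Smad4-null (limma adjusted p = 6.24e-04), from 8.97 ± 0.20 to 10.12 ± 0.22 (SD, n = 4). Of the vascular growth factors, Vegfd rose by 0.56 (limma adjusted p = 0.01884) and Vegfc by 0.37 (limma adjusted p = 0.03264). Neither passed with same-numbered arrays as 1 unit, where 1 ligand rose and 1 fell. In that fit 4.88% of all genes were called lower, and the share called higher is not given here.

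**Figure D4:**
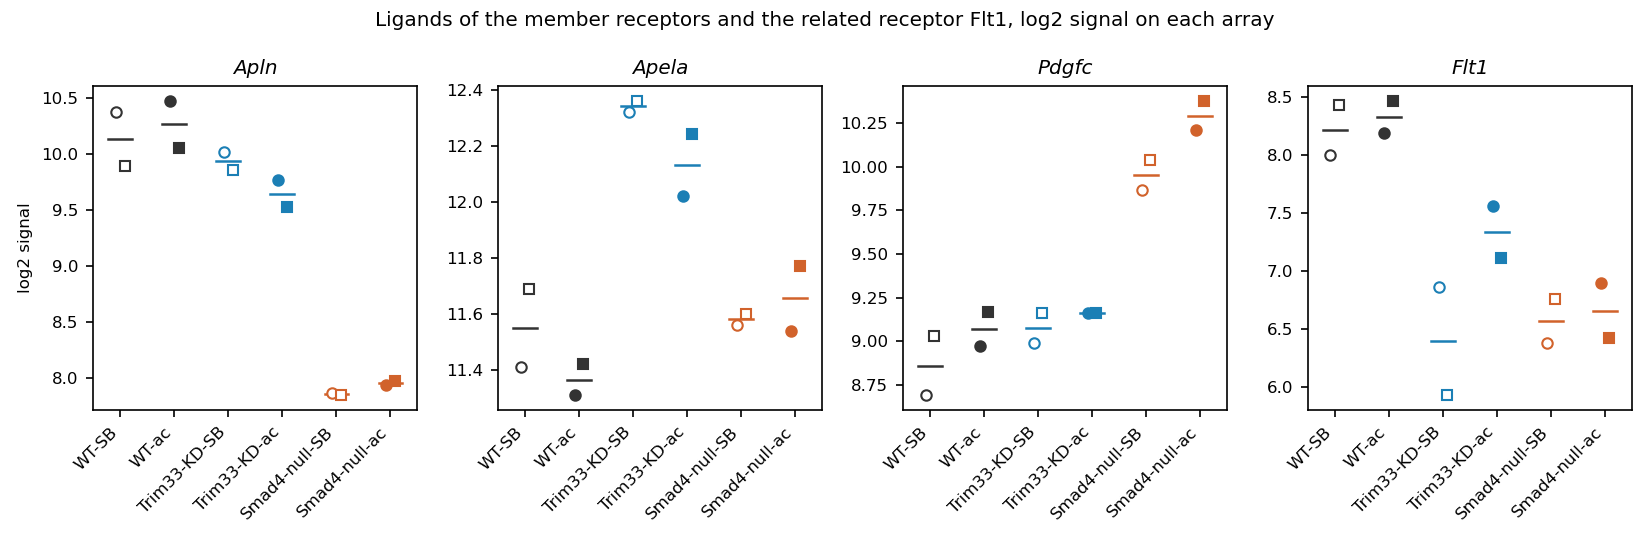
Log2 signal of the ligand genes Apln, Apela and Pdgfc and of the receptor Flt1 on each of the 12 arrays, by genotype, drawn with the same symbols as the member genes. Apln is lowest on the 4 Smad4-null arrays, at 7.85 to 7.98, and Apela is highest on the 4 Trim33-KD arrays, at 12.02 to 12.36.

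Of 8 receptors related to the members, 3 fell and 1 rose in Smad4-null, and 0 passed in Trim33-KD. The shares of all genes were 11.3% lower and 7.12% higher in Smad4-null, and 0.649% called in Trim33-KD. Flt1, like Kdr a receptor for vascular endothelial growth factor, fell by 1.66 (limma adjusted p = 0.003991) and was 6.87 ± 0.69 in Trim33-KD against 8.27 ± 0.22 in WT (SD, n = 4; limma adjusted p = 0.0652). Flt4, a receptor of the same family known from lymphatic vessels, fell by 0.94 (limma adjusted p = 0.001166) and the co-receptor Nrp2 by 0.72 (limma adjusted p = 0.01516, and 0.09452 with same-numbered arrays as 1 unit). Tek, the angiopoietin receptor, rose by 1.09 (limma adjusted p = 0.003107). Kdr, Kit and Pdgfra lie next to each other on chromosome 5. Kit between them was 9.41 ± 0.35 in WT, 8.52 ± 0.59 in Trim33-KD and 9.39 ± 0.16 in Smad4-null (SD, n = 4) and passed in neither comparison with WT. Of the neighbours of the members, 7 were read (Kit, Chic2, Gsx2, Srd5a3, Tmem165 and Clock on chromosome 5, and Mesp2), and 0 passed in either.

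Factors known to act upstream of the members were read next. Of 11 measured upstream factors 8 fell in Smad4-null and 0 rose, with a median of -0.70 against -0.03 over all genes. In Trim33-KD 0 passed. For this list and those below, 11.3% of all genes were called lower and 7.12% higher in Smad4-null, and 0.649% were called in Trim33-KD. Among the upstream factors Mixl1, a homeobox factor of the streak, fell by 4.26 in Smad4-null (limma adjusted p = 2.77e-04) and Evx1 by 4.23. Eomes, a T-box factor upstream of Mesp1, fell by 3.65 and Wnt3 by 3.53. Evx1 and Wnt3 were dim in Smad4-null, at 4.15 ± 0.77 and 3.04 ± 1.73 (SD, n = 4), and with values floored at 64 their differences were -2.38 and -0.68, both still called, while that of Mixl1 was -4.09. Of 17 measured genes of paraxial and presomitic mesoderm, 5 fell and 5 rose, so this list had no single direction. Rspo3, a Wnt agonist, fell by 4.47, Pcdh8 by 3.18, Cdx2 by 2.95, Dll3 by 1.08 and Snai1 by 0.94. Meox1 was called 3.39 higher and Foxc2 1.71 higher, from dim WT signals of 2.85 and 0.41. The brighter genes that rose were Dll1 by 1.29 (8.05 in WT), Tcf15 by 0.89 (9.56) and Lfng by 0.74 (6.94). With values floored at 64, 3 of that list rose and 5 fell. Rspo3, at 3.58 ± 1.33 in Smad4-null (SD, n = 4), then differed by -2.05, Pcdh8 by -2.73 and Cdx2 by -2.12, all still called, and Meox1 by 0.23, not called. Of 20 genes of cardiac, lateral and blood-forming mesoderm, 5 fell and 1 rose in Smad4-null and 0 passed in Trim33-KD. These included Lhx1, which fell by 3.84 (-2.83 with the floor), Gata6 by 1.5, and the vessel and blood regulators Lmo2 by 1.2 and Etv2, upstream of Kdr-positive vessel precursors, by 1.09. The lists share genes: Gata6 was also counted above as an extraembryonic endoderm marker, and Cdx2 is in the trophectoderm list too. Gata4 is in the same lists as Gata6, and Tie1 is in those of related receptors and of endothelium and blood. Kit and Mesp2, read as neighbours, are also in the related receptor and paraxial lists. With same-numbered arrays of a line taken as 1 unit, 6 upstream factors fell, and 4 paraxial genes fell and 2 rose. Of the cardiac, lateral and blood-forming list 3 genes fell and 0 rose. In that fit 4.88% of all genes were called lower, and the share called higher is not given here. Markers of formed endothelium and blood were called in neither direction, 0 of 6 measured. Their summed level was 8.06 to 8.57 on the WT arrays and 8.84 to 9.18 on the Smad4-null arrays. Pecam1, at 7.74 ± 0.44 in WT and 8.57 ± 0.30 in Smad4-null (SD, n = 4), made up most of that sum. The others were dim, with means of at most 5.48 in either genotype. Of these Tie1 was lower in Smad4-null (3.14 against 4.07), and Cdh5, Emcn, Hbb-bh1 and Hba-x were higher. The part of these markers in the Kdr values was not tested.

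The genes most like each member were found by the root mean square difference of their log2 values over the 12 arrays, after centring each gene on its own mean. Only genes whose highest group mean was at least 7.48, the median of all gene means, were searched. Pdgfra, Tbx6 and Msgn1 lie below that limit themselves, with highest group means of 6.63, 5.75 and 5.57. Dim genes that may be closer to them were therefore left out. Nearest to Aplnr were Fst (0.58), Mid1 (0.61) and Cdh11 (0.65), against an SD of 2.45 for Aplnr itself over the arrays. Nearest to Mesp1 were Gas1 (0.25), Car14 (0.25) and Cdh13 (0.26), and nearest to Kdr were Mex3a (0.21), Sphkap (0.23) and Kantr (0.24). Pdgfra was nearest to Sox18 (0.37), Il17rd (0.39) and Foxa2 (0.41). Tbx6, nearest to Dock1 and Ugcg (0.18 each) and Porcn (0.19), and Msgn1, nearest to P3h1 (0.50), Atp6v0e2 and Phka1 (0.51 each), had an SD over the arrays of 0.35 and 0.71.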

How the data were processed

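Total RNA of 12 embryoid body samples was hybridized to Affymetrix mouse arrays. The values are log2 signals as the authors deposited them; per array, the antilog values average 500 once 2% are trimmed at each end. The submitters' processing notes name limma without a version; summarization of probes is a step not given in the sources used here. Values were used unchanged. Each of 18193 genes was represented by its brightest probe set. Group means were modelled over all 12 arrays (limma 3.58.1 in R 4.3.3, lmFit and eBayes, 6 residual degrees of freedom). P-values of the 12 comparisons were adjusted by Benjamini-Hochberg over all genes, with a threshold of 0.05. The model was first tested on simulated data. "Fell", "rose" and "called" refer to that threshold. The members and lists were chosen with earlier results of these data known, so the lists are no independent support. The text names the members, the 3 genes most like each among the brighter genes searched, neighbours, and up to 4 called genes of each list. Further list members were named after their values were seen. Alternatives covered scaling, low signals, probe sets, prior, array weights, samples and a replicate block. Replicate numbers were not shown to pair arrays across lines; since the 2 treatments of a line may share a source by number, a fit with same-numbered arrays of a line as 1 unit was added after the data were seen. Figures were drawn with matplotlib 3.10.9.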

Additional observations from a re-analysis of the deposited data

Results flagged for a closer look

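The response of Mesp1 to activin had opposite signs in WT and Smad4-null. With activin Mesp1 was 0.37 higher than with SB431542 in Smad4-null, where both activin arrays lay above both SB431542 arrays, and it differed by -0.39 in WT, where both lay below. Neither response had an unadjusted limma p under 0.05 (0.2730 in Smad4-null and 0.2487 in WT). In WT the treatments did not overlap for 26.7% of all genes, and the share in Smad4-null is not given here. The difference between the Mesp1 responses, 0.76 (SE 0.44), did not pass (limma adjusted p = 0.7459).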

How the results depend on the processing

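Aplnr stayed called lower in Smad4-null, averaged over treatments, under all 24 alternatives (-5.72 to -3.06), and Mesp1 under 23 (-1.54 to -1.41 over all 24). Fitting only the groups compared gave 4 members for that comparison and 0 under each treatment. Where no share of all genes is given for an alternative, its count shows only how the member calls moved and cannot be set against all genes. Leaving out each array in turn gave 2 to 3 members for the average, 1 to 2 under SB431542, 0 to 2 under activin, 1 to 2 for Trim33-KD against Smad4-null and 0 for Trim33-KD against WT. Under SB431542 1 member remained called without either Smad4-null array of that treatment or without WT-SB replicate 2, and under activin 0 without WT-ac replicate 2. Without the 2 arrays of lowest SD (3.07 on WT-SB replicate 2, 3.13 on Smad4-null-ac replicate 1) 0 were called under either treatment. Under activin 2 were called with median centring, with probe sets averaged per gene and with a trended and robust prior; that prior also called 2 in Trim33-KD against WT. Without both Trim33-KD arrays numbered 2, chosen after seeing the data, counts were 4 for the average, 3 under activin and 3 for Trim33-KD against Smad4-null. The activin responses and their differences called 0 members in every alternative that ran. The upper 50% of genes by mean signal held no member, so it gave no value. Median centring moved the median of all genes in Trim33-KD minus WT to 0.16. Same-numbered arrays had deviations correlated at -0.299 to 0.386, with 6 of 15 pairs over 0.1, and 8 of 12 arrays correlated best with their own number. Those 8 were the WT and Trim33-KD arrays, through the correlations within these lines of 0.386 and 0.335. The 2 arrays of a group deviate from its mean by equal and opposite amounts, so the 8 are not separate observations. A replicate block shared by all lines left every count as it was, 2 for Smad4-null against WT and 0 for Trim33-KD against WT. Deviations correlated at 0.386 within WT, 0.335 within Trim33-KD and -0.192 within Smad4-null. A replicate block within each line (same-numbered arrays as 1 unit, chosen after seeing the data) gave 1 for Smad4-null against WT, 0 for Trim33-KD against WT and 1 for Trim33-KD against Smad4-null. Fewer units enter that fit, and p-values over 4 arrays a genotype are too small if such arrays share a source. Signals near or below the array median limit what can be seen of Tbx6, Msgn1 and Pdgfra.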
